A study of Mus musculus with 6 samples.

Results

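The genes described here are 10 members of the redox system: the NADPH oxidase catalytic subunits Nox4 and Cybb, the superoxide dismutases Sod1, Sod2 and Sod3, the peroxide-removing enzymes Cat, Gpx1, Gpx3 and Gpx4, and heme oxygenase Hmox1. They were taken by gene symbol from a table of 46983 genes, and each of the 10 symbols was found there. The RNA came from aortic valves of wild-type C57BL/6J mice, taken either 2 days after birth (PND2) or from adults of 4 months. There were 3 libraries per age, and the valves of 5 to 6 mice were pooled in each library. The labels name no treatment and no allele other than wild type at either age, and a pool hides the differences between its animals.

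NADPH oxidases move electrons from NADPH across a membrane onto oxygen. The enzyme built around Cybb (also called Nox2 or gp91phox) makes superoxide and is best known from phagocytes, while Nox4 releases mainly hydrogen peroxide and is known from vascular smooth muscle cells, fibroblasts and kidney. Superoxide is turned into hydrogen peroxide by Sod1 in the cytosol, Sod2 in mitochondria and Sod3 outside the cell. Catalase and the glutathione peroxidases then remove the peroxide, and Hmox1 breaks down heme when cells are stressed.

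Values are RPKM, read counts scaled to exonic length and library total, and they are given as mean ± SD over the 3 libraries of an age. Library totals ran from 23810507 to 38994657. A member held between 289 and 44353 reads in a library. The 2 ages were compared with limma on log2(RPKM + 0.1) across the 25903 genes that reached 0.1 RPKM in 3 or more libraries, with Benjamini-Hochberg adjustment over all of them, and a gene was called at an adjusted p under 0.05. All 10 members passed the filter on low values. With 3 libraries against 3, the smallest 2-sided p of an exact permutation test is 0.1.

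Marker genes of several cell types differed between the ages. Over all genes tested, 14.7% were called higher and 21.1% lower at 4 months. Smooth muscle markers were called higher at 4 months for 7 of 8 genes, with summed levels of 7499 to 8670 RPKM at PND2 and 16934 to 28034 RPKM at 4 months. Macrophage markers were called higher for 8 of 10 genes. Endothelial markers were called lower for 8 of 8, cardiomyocyte markers lower for 4 and higher for 1 of 9, and valve interstitial markers lower for 4 and higher for 2 of 8 (3 and 3 after median scaling). The summed level of the valve interstitial markers was nevertheless higher at 4 months, at 8033 to 10135 RPKM against 6501 to 7152 RPKM at PND2. That of the cardiomyocyte markers was 12254 to 13490 RPKM at PND2 and 6029 to 10583 RPKM at 4 months. The counts of called markers given so far are by limma. An unequal-variance test of each gene alone called 4 smooth muscle and 5 macrophage markers higher and 4 endothelial markers lower. It called no cardiomyocyte marker, 1 valve interstitial marker in each direction, and 13.2% of all genes. The summed level of 7 adipocyte markers was 1427 RPKM in replicate 2 of 4 months, against 344 and 326 RPKM in the other libraries of that age and 63.8 to 147 RPKM at PND2. Among them Cidec, Lep and Retn were at 0 in each PND2 library, and 5 of the 7 passed the filter on low values through 4 months only, so their calls are not counted here. In pooled whole valves, fewer cells of a type and less RNA per cell cannot be told apart.

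Of the 10 members, 5 rose between PND2 and 4 months: Nox4, Sod3, Cybb, Gpx1 and Gpx4. By limma no member was called lower, although 1 member, Hmox1, was lower at an unadjusted p under 0.05, and 6 were higher at that level. Limma with voom weights on recovered reads called Hmox1 lower. Among all genes tested, 35.8% were called, 14.7% higher and 21.1% lower at 4 months. The median log2 fold change of the 10 members was 0.51, and that of all genes tested was -0.14. Scaling each library to its median moved the all-gene median to -0.02 and the share of calls that were higher from 41.1% to 52.7%, with 3810 higher and 5463 lower as deposited and 4601 higher and 4129 lower after scaling. Values were fully separate between PND2 and 4 months for 6 members, which are the 5 called genes and Hmox1. This was so for 50.0% of all genes tested.

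**Figure D1:**
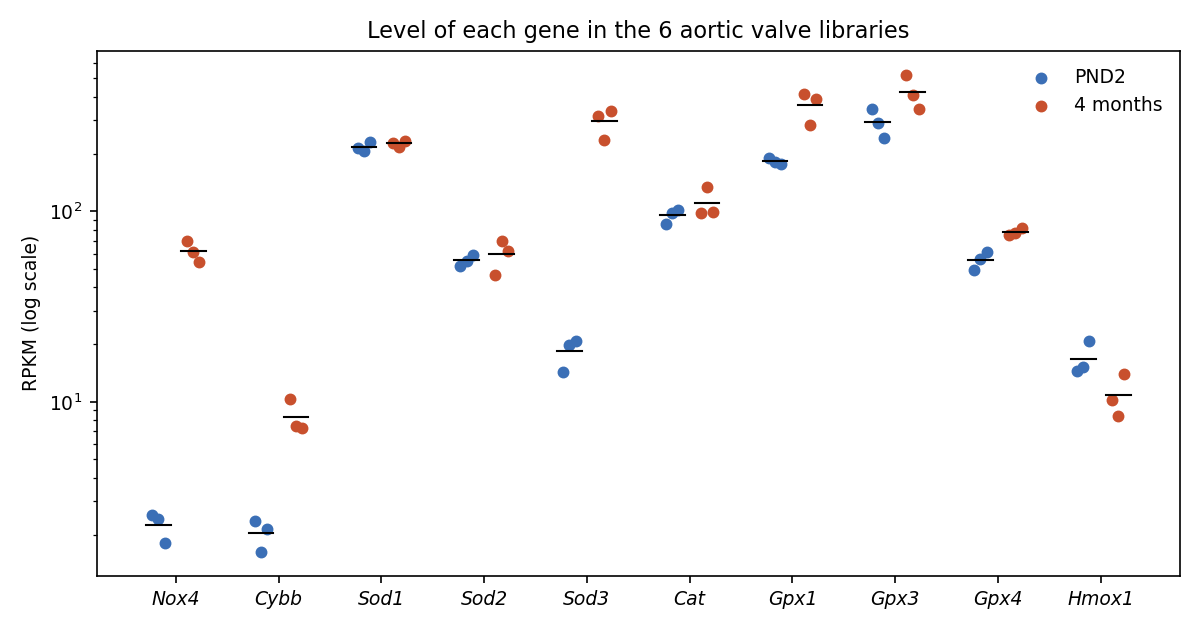
RPKM on a log axis of each of the 10 genes in each library, with PND2 in blue, 4 months in orange and a black line at the mean of each age. The points of the ages are far apart for Nox4 (2.26 and 61.6 RPKM on average) and Sod3 (18.4 and 296 RPKM), and they overlap for Sod1, Sod2, Cat and Gpx3.

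Among the sources of oxidants, Nox4 (ENSMUSG00000030562, chr7:87246096-87398710, plus strand, mm10) was measured at 2.55, 2.43 and 1.81 RPKM in the PND2 libraries and at 69.5, 61.2 and 54.1 RPKM at 4 months. The adult libraries were all far above the neonatal ones, and within each age replicate 3 was the lowest. These levels stood for 449 to 841 reads at PND2 and 12354 to 21993 reads at 4 months. The ratio of the means was 27.2, and the log2 fold change was 4.71 (SE 0.17) with a 95% confidence interval of 4.33 to 5.10 and an adjusted p of 1.4e-05 by limma. Ranked by log2 fold change, Nox4 was number 70 of the 25903 genes tested. Its level rose from percentile 44.1 to percentile 92.8 of protein-coding genes.

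Cybb (ENSMUSG00000015340, chrX:9435252-9487771, minus strand) was measured at 2.38, 1.63 and 2.16 RPKM at PND2 and at 10.3, 7.48 and 7.25 RPKM at 4 months. The lowest adult library was above the highest neonatal library. Mean levels were 2.06 ± 0.385 and 8.34 ± 1.69 RPKM, a log2 fold change of 1.97 (SE 0.22) with an adjusted p of 7.3e-04 by limma. Cybb is a gene of phagocytes, and the summed level of 10 macrophage markers ran from 364 to 416 RPKM at PND2 and from 1115 to 1235 RPKM at 4 months. Of these markers Csf1r, the receptor for macrophage colony-stimulating factor, went from 28.6 ± 3.11 to 59.4 ± 7.47 RPKM, and no macrophage marker was at 0 at either age. Lyz2, also among them, went from 121 ± 12.3 to 595 ± 25.6 RPKM and so made up much of the sum. The median log2 fold change of the 10 macrophage markers was 1.05. The summed level of 9 neutrophil markers lay between 25.6 and 32.1 RPKM at PND2 and between 0.588 and 1.36 RPKM at 4 months. Of these markers 6 passed the filter on low values, 3 of them through PND2 only, so their calls are not counted here. Ngp and Mmp8, which encode granule proteins of neutrophils, were at 0 in every library of 4 months, and Ly6g was at 0 in every PND2 library. The part of these cells in the level of Cybb was not tested.

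Per length, the makeup of this pair of oxidase transcripts changed. Nox4 made up 51.7, 59.9 and 45.6% of the summed RPKM of Nox4 and Cybb in the PND2 libraries, and 87.1, 89.1 and 88.2% at 4 months. The mean share went from 52.4 ± 7.16% to 88.1 ± 1.00%, with no overlap between the ages (exact permutation test, 2-sided p = 0.1, the smallest it can give). The summed level of the pair was 4.32 ± 0.527 RPKM at PND2 and 70.0 ± 9.26 RPKM at 4 months. The share depends on how length is counted. Measured by the median RPKM over the expressed exons of each gene, it was 74.6 ± 1.65% at PND2 and 95.3 ± 1.19% at 4 months.

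The sequences around the annotated starts of Nox4 and Cybb are shown because these 2 catalytic subunits rose by different amounts. Each runs from 250 bases before to 50 bases after the start, 5′ to 3′ on the strand of the gene (RefSeq, GRCm38.p6). Capitals mark a GC box, GGGCGG or its reverse complement, the letters bound by Sp1-type factors. The Nox4 window is chr7:87246399-87246698 and the Cybb window chrX:9469275-9469574.
Nox4: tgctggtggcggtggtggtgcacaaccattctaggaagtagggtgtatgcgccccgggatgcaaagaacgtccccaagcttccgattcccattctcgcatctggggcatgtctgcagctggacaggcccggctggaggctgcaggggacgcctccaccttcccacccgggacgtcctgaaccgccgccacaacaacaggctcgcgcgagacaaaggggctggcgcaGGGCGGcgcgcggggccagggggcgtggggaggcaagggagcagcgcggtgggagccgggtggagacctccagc
Cybb: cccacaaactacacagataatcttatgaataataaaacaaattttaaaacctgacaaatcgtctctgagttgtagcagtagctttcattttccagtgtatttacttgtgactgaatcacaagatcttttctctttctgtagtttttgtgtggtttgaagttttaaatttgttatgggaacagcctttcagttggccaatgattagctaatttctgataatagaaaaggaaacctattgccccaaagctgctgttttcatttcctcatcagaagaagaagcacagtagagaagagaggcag
The Nox4 window was 68.3% G and C and held a GC box 24 bases before the start. That of Cybb was 35.3% G and C and held no GC box. The median of all 32851 windows of this length was 52.7% G and C, and 35.7% of them held a GC box on either strand. The Nox4 start in this window, base 87246649, is the first base of an annotated exon that ran from 1.56 RPKM at PND2 to 32.9 RPKM at 4 months. An exon annotated further upstream, at chr7:87246096-87246219, held at most 2 reads in a library.

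Among the superoxide dismutases, Sod3 rose and the other members of the family were not called. Sod3 (ENSMUSG00000072941, chr5:52363791-52371418, plus strand) encodes the secreted enzyme that binds to the extracellular matrix. Its level was 14.4, 19.7 and 21.0 RPKM at PND2 and 318, 236 and 336 RPKM at 4 months. No adult library came near the neonatal values, and replicate 2 was the lowest of the adult libraries. Means were 18.4 ± 3.51 and 296 ± 53.0 RPKM, a ratio of 16.1. The log2 fold change was 4.01 (SE 0.19, 95% confidence interval 3.57 to 4.44) with an adjusted p of 3.1e-05 by limma, and Sod3 was number 129 of the 25903 genes when ranked by it. The smooth muscle marker sum was also lowest in replicate 2 among the adult libraries, at 16934 RPKM against 28034 and 20272 RPKM, and its part in the level of Sod3 was not tested.

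Sod1 (ENSMUSG00000022982, chr16:90220742-90226322, plus strand), the cytosolic copper-zinc enzyme, was measured at 215, 206 and 232 RPKM at PND2 and at 228, 217 and 235 RPKM at 4 months. The 2 ages overlapped. Its log2 fold change was 0.06 with a 95% confidence interval of -0.16 to 0.27 (adjusted p = 0.654 by limma). Sod2 (ENSMUSG00000006818, chr17:13007839-13018119, plus strand), the manganese enzyme of mitochondria, was measured at 51.7, 55.1 and 58.7 RPKM at PND2 and at 46.3, 70.2 and 61.5 RPKM at 4 months. The adult libraries lay on both sides of the neonatal ones. Its log2 fold change was 0.09 with a 95% confidence interval of -0.28 to 0.45 (adjusted p = 0.705 by limma), and without replicate 2 of 4 months it was -0.045. For both enzymes the interval leaves room for a modest change in either direction, and not for a change of the size seen for Sod3.

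Through Sod3, the makeup of the superoxide dismutase transcripts shifted toward the secreted enzyme. Sod3 made up 5.11, 7.03 and 6.72% of the summed RPKM of the 3 genes at PND2 and 53.6, 45.1 and 53.1% at 4 months. Mean shares were 6.29 ± 1.03% and 50.6 ± 4.79%, a difference of 44.3 percentage points without overlap (exact permutation test, 2-sided p = 0.1, the smallest it can give). The summed level of the family was 291 ± 17.8 RPKM at PND2 and 583 ± 54.7 RPKM at 4 months. By the median RPKM over expressed exons the share of Sod3 was 5.10 ± 0.694% and 46.6 ± 5.76%.

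**Figure D2:**
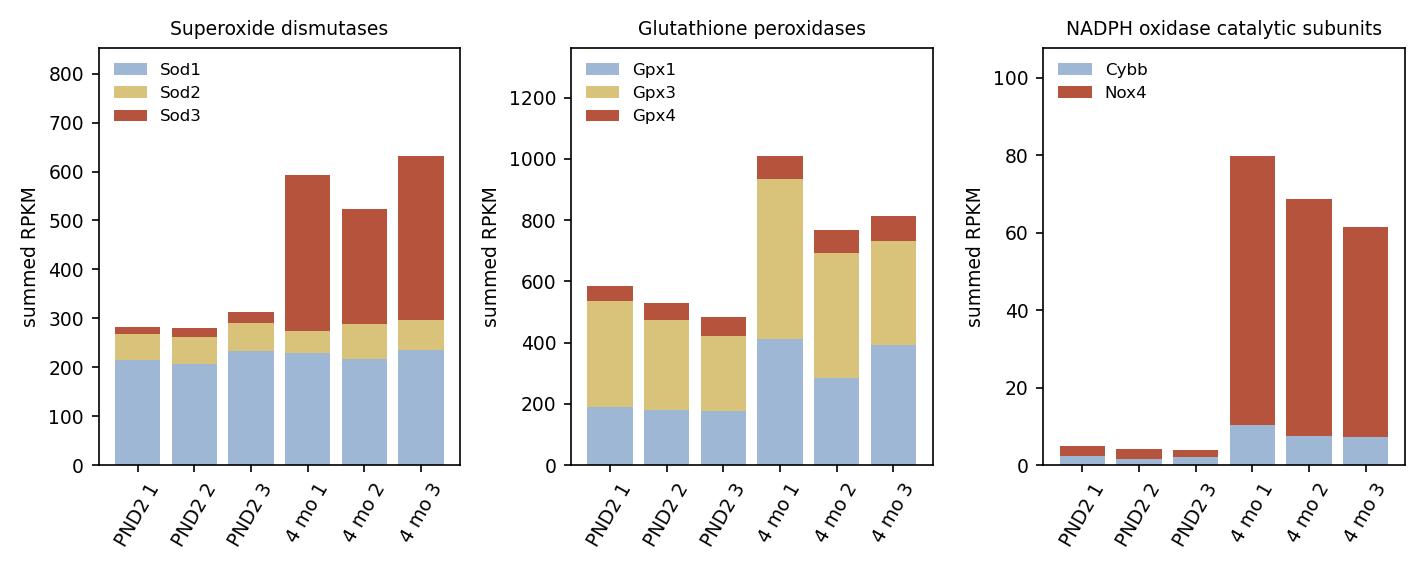
Stacked RPKM of the superoxide dismutases Sod1, Sod2 and Sod3, of Gpx1, Gpx3 and Gpx4, and of Nox4 and Cybb in each of the 6 libraries, with bars starting at 0. Other glutathione peroxidases (such as Gpx7 and Gpx8) and other oxidase catalytic subunits (such as Nox1 and Duox2) are not in the bars. Sod3 fills 45.1 to 53.6% of the superoxide dismutase bar in the adult libraries and 5.11 to 7.03% in the neonatal ones, and the Nox4 segment fills 45.6 to 59.9% of its bar at PND2 and 87.1 to 89.1% at 4 months.

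Of the 4 peroxide-removing enzymes, Gpx1 and Gpx4 rose, Cat was not called, and Gpx3 lay near the threshold. Gpx1 (ENSMUSG00000063856, chr9:108338903-108340343, plus strand), the glutathione peroxidase of cytosol and mitochondria, was measured at 190, 181 and 177 RPKM at PND2 and at 413, 285 and 390 RPKM at 4 months. Neonatal values lay close together and adult values were spread, yet the ages did not overlap. The means were 183 ± 6.53 and 363 ± 68.3 RPKM, a log2 fold change of 0.97 (SE 0.15) with an adjusted p of 0.0028 by limma. Gpx4 (ENSMUSG00000075706, chr10:80047166-80056439, plus strand) reduces lipid hydroperoxides in membranes and so protects cells from ferroptosis. It was measured at 49.3, 56.2 and 61.0 RPKM at PND2 and at 75.0, 76.6 and 81.7 RPKM at 4 months, and the adult values were all above the neonatal ones. Its log2 fold change was 0.49 (SE 0.10) with an adjusted p of 0.0099 by limma. An unequal-variance test of each gene alone gave adjusted p-values of 0.0938 for Gpx1 and 0.0830 for Gpx4, above the threshold of 0.05 applied here and below 0.1. Gpx4 has an annotated processed pseudogene, so its counts carry some uncertainty from reads that match more than 1 place.

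Gpx3 (ENSMUSG00000018339, chr11:54902453-54910377, plus strand), the secreted glutathione peroxidase, had the highest mean RPKM per gene of the 10 at both ages. By the median over expressed exons Gpx1 was higher at 4 months (575 against 463 RPKM), and per gene it exceeded Gpx3 in replicate 3 of that age. It was measured at 346, 292 and 244 RPKM at PND2 and at 522, 406 and 343 RPKM at 4 months. The lowest adult library lay just under the highest neonatal library. Its log2 fold change was 0.52 (SE 0.19, 95% confidence interval 0.07 to 0.97) with an adjusted p of 0.0705 by limma, and it passed the threshold after median scaling, with 0.64 and an adjusted p of 0.0369, and without replicate 1 of PND2, with 0.64 and an adjusted p of 0.0497. Cat (ENSMUSG00000027187, chr2:103453849-103485160, minus strand), which encodes the catalase of peroxisomes, was measured at 85.7, 98.1 and 102 RPKM at PND2 and at 98.1, 134 and 99.1 RPKM at 4 months. Replicate 2 of 4 months stood above the other 5 libraries, which spanned 85.7 to 102 RPKM. The log2 fold change of Cat was 0.20 with a 95% confidence interval of -0.13 to 0.54 (adjusted p = 0.313 by limma), and without replicate 2 of 4 months it was 0.056. The library with the highest Cat and the highest Sod2 was also the library with the highest adipocyte marker sum, and the part of those cells in either level was not tested.

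Among the 3 glutathione peroxidases that are members, the share of Gpx3 overlapped between the ages. Gpx3 made up 59.1, 55.2 and 50.6% of their summed RPKM at PND2 and 51.7, 52.9 and 42.1% at 4 months, with means of 55.0 ± 4.27% and 48.9 ± 5.95% (exact permutation test, 2-sided p = 0.3). The sum itself was 532 ± 51.5 RPKM at PND2 and 864 ± 128 RPKM at 4 months.

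The start regions of Sod1 and Gpx1 are shown as a contrasting pair, since Sod1 was not called and Gpx1 rose. Capitals mark GC boxes as before and also TATA boxes and cores of the antioxidant response element, the site through which Nrf2 acts, each searched on both strands, and overlapping matches run together. The TATA box was searched as TATAAA. For the antioxidant response element the letters were TGACNNNGC. The Sod1 window is chr16:90220512-90220811 and the Gpx1 window chr9:108338830-108339129.
Sod1: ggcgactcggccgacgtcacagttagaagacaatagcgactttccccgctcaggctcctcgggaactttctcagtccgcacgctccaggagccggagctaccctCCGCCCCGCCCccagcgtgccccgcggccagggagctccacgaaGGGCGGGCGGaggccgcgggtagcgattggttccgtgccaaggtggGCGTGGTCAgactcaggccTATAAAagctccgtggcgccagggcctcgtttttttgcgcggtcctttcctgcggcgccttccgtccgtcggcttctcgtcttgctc
Gpx1: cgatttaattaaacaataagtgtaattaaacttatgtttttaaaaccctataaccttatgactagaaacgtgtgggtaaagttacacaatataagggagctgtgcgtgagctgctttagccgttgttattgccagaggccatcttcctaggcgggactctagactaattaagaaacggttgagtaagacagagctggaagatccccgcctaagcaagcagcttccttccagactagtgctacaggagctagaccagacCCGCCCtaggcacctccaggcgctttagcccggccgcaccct
The Sod1 window held 4 GC boxes, a TATA box 37 bases before the start, and an antioxidant response element core on the opposite strand whose first base in the window lies 56 bases before the start. In the Gpx1 window the single match was a GC box on the opposite strand, past the start. Windows were given for 8 of the 10 members, 11 windows in all, and the Sod1 window was the 1 of these 11 with an antioxidant response element core. Among all 32851 windows 12.4% held that core and 13.6% a TATA box. Of the member windows, 9 held a GC box, beside 35.7% of all windows. Some of the 9 are Gpx4 windows that overlap each other and hold the same GC boxes. Such matches are letters in a short window and say nothing on binding.

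Hmox1 (ENSMUSG00000005413, chr8:75093591-75100596, plus strand), the inducible heme oxygenase, was the 1 member with a negative log2 fold change. It was measured at 14.5, 15.2 and 20.7 RPKM at PND2 and at 10.2, 8.40 and 14.0 RPKM at 4 months. The highest adult library, replicate 3, lay just under the lowest neonatal library. Means were 16.8 ± 3.42 and 10.9 ± 2.87 RPKM. The log2 fold change was -0.64 (SE 0.22, 95% confidence interval -1.15 to -0.12) with an adjusted p of 0.0584 by limma. Without replicate 3 of 4 months it was -0.84 with an adjusted p of 0.0288, and with voom on recovered reads it was -0.62 with an adjusted p of 0.0411. Macrophages are a known source of Hmox1, and the macrophage marker sum given above was higher at 4 months while Hmox1 was not. Genes of red blood cells, whose heme is a substrate of the enzyme, had summed levels of 1865 to 2599 RPKM at PND2 and 750 to 2158 RPKM at 4 months. None of the 5 erythroid genes tested was called by limma, by the per-gene test or by voom, and 1 was lower at an unadjusted p under 0.05. Without replicate 2 of 4 months, limma called 4 of the 5 lower, so that the count of 0 rests on that library. The part of these cells in the level of Hmox1 was not tested.

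**Figure D3:**
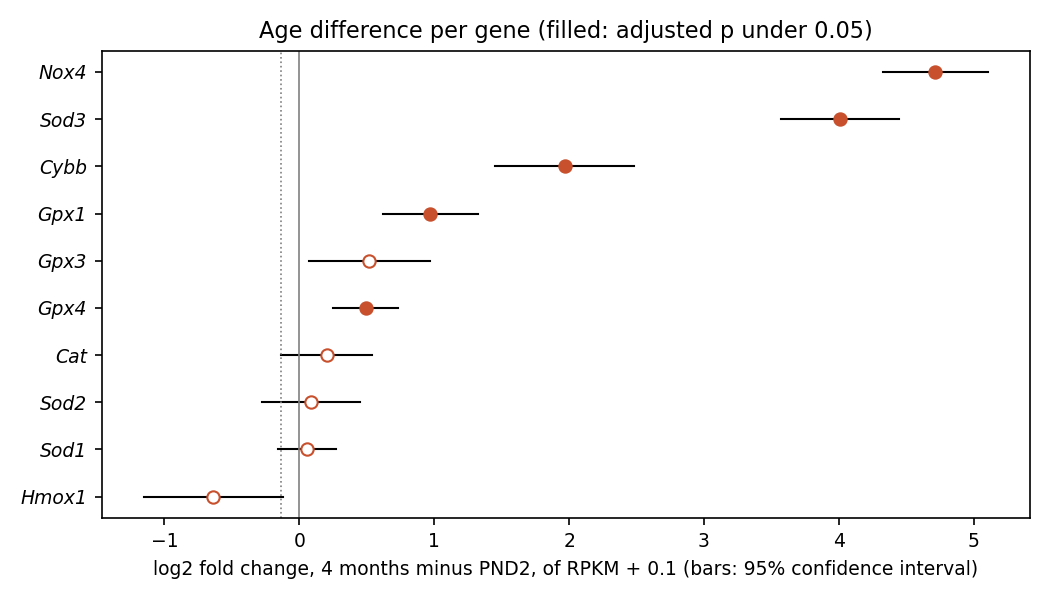
Log2 fold change of RPKM + 0.1, 4 months minus PND2, of the 10 genes, with bars for the 95% confidence interval, filled points for genes called by limma, a solid line at 0 and a dotted line at the median of all genes tested (-0.14). Nox4 (4.71) and Sod3 (4.01) stand apart from the rest, the intervals of Cat, Sod2 and Sod1 include 0, and that of Hmox1 lies below 0 although the gene was not called after adjustment.

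The order of levels changed with age mainly through Sod3 and Nox4. At PND2 it was Gpx3, Sod1, Gpx1, Cat, Gpx4, Sod2, Sod3, Hmox1, Nox4 and Cybb, from high to low RPKM. Neighbours whose library values overlapped were Gpx4 and Sod2, Sod3 and Hmox1, and Nox4 and Cybb. At 4 months the order was Gpx3, Gpx1, Sod3, Sod1, Cat, Gpx4, Nox4, Sod2, Hmox1 and Cybb. Here Gpx3 and Gpx1, Gpx1 and Sod3, Nox4 and Sod2, and Hmox1 and Cybb overlapped. Sod3 moved from rank 7 to rank 3 and Nox4 from rank 9 to rank 7. RPKM per gene divides by the length of every annotated exon, which lowers genes with long exons that are little used. By the median over expressed exons Sod2 was at 176 RPKM at PND2, beside 166 RPKM for Sod1, and Nox4 reached 132 RPKM at 4 months, so orders of neighbours on this scale are uncertain.

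Exon values showed whether a change ran along the whole gene. An exon was counted as expressed with a mean of at least 1 RPKM at either age, exons with the same coordinates were counted once, and some of the rest overlap each other, so they are not independent. Over all genes, 42.7% of expressed exons did not overlap between the ages, and 15.9% did not overlap and were higher at 4 months. For Nox4, 26 of 26 expressed exons were higher at 4 months without overlap, with log2 differences from 3.81 to 6.76. Some of them reached 1 RPKM at 4 months only, so the direction of these was fixed by the filter. They include chr7:87395670-87395863 (0.117 and 2.23 RPKM), which gave the 3.81. The 6.76 came from a 28-base exon with 1 to 3 reads in each PND2 library. Exons toward the 3′ end carried the highest adult values. The exon at chr7:87374354-87374422 went from 10.2 to 302 RPKM, and the last exon, chr7:87396771-87398710, went from 4.72 to 122 RPKM. An exon annotated as 3375 bases long, chr7:87304838-87308212, reached 6.04 RPKM at 4 months, and its length lowers the level given per gene. For Cybb, 18 of 19 expressed exons were higher without overlap. The remaining exon is 22 bases long. Among the 18, too, some reached 1 RPKM at 4 months only, such as chrX:9449641-9449733 (0.996 and 6.45 RPKM).

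Both exons of Sod3 gave the same log2 difference, 4.01, in the short first exon (18.6 to 297 RPKM) and in the long second exon that holds the coding sequence (18.3 to 296 RPKM). All 8 annotated exon segments of Gpx1 were higher without overlap, from 0.78 to 1.00 on the log2 scale. For Gpx4 it was 12 of 16, and the 4 others included the first exon of the main transcript, chr10:80053488-80053715, at 25.7 and 30.7 RPKM. Gpx3 had 3 of 10 expressed exons higher without overlap, Cat 1 of 17, Sod1 1 of 5, and Sod2 none of 5.

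The exons of Sod2 did not share a direction, as each had a small negative log2 difference except the last. Their median log2 difference was -0.06, beside 0.09 for the whole gene. An internal exon, chr17:13008184-13008386, went from 176 to 154 RPKM and the next, chr17:13010520-13010636, from 254 to 252 RPKM, while the last exon, 3094 bases long and mostly untranslated, went from 30.0 to 37.5 RPKM. The log2 differences were -0.20, -0.03 and 0.29, and values of the ages overlapped in each of them. For Hmox1, 5 of 8 expressed exons were lower at 4 months without overlap. The difference was -0.94 in the first exon, -0.46 in the long middle exon, where the ages overlapped, and -0.64 in the last exon.

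**Figure D4:**
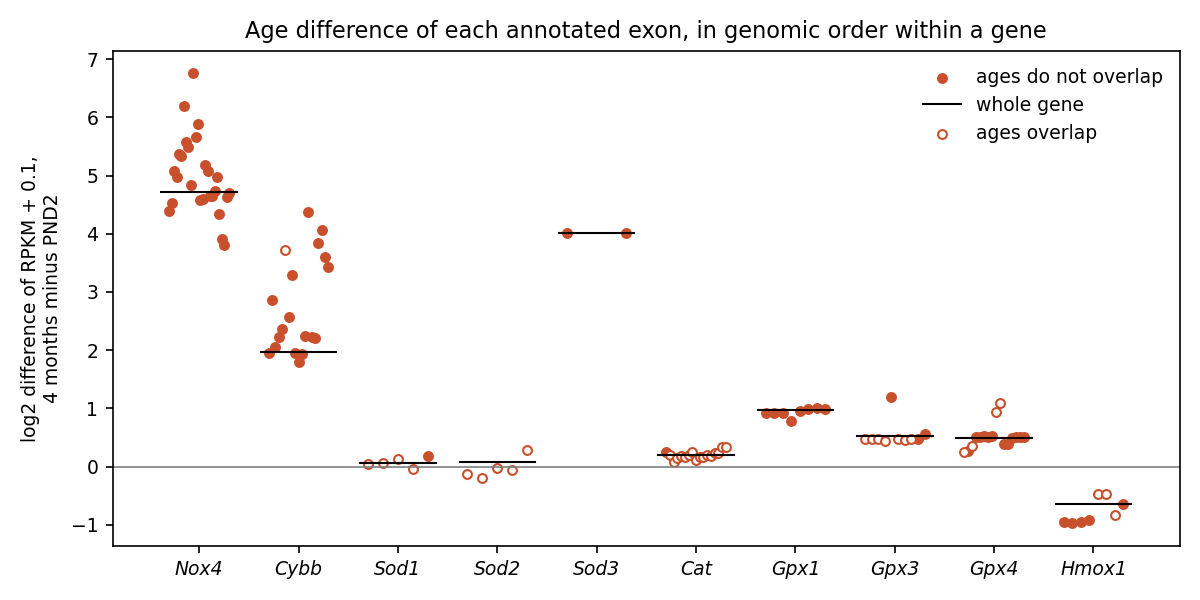
Log2 difference of RPKM + 0.1, 4 months minus PND2, of each expressed annotated exon of the 10 genes, in genomic order within a gene, with filled points where the ages did not overlap, open points where they did and a black line at the value of the whole gene. Exons of Nox4 run from 3.81 to 6.76 and those of Sod3 lie on a single value, while exons of Sod1, Sod2 and Cat scatter around the value of their gene.

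The partners of the oxidases moved unevenly. Of 17 tested genes of NADPH oxidase subunits and regulators, 8 were called higher, 1 lower and 8 not, beside 14.7% of all genes called higher, with a median log2 fold change of 0.82. Nox4 and Cybb are among the 8, and so is Duox1, which passed the filter on low values through 4 months only. Without replicate 3 of 4 months 4 were called higher, and the unequal-variance test of each gene alone called 5. Cyba (p22phox), the membrane partner that both enzymes need, was measured at 88.6 ± 6.01 and 106 ± 22.4 RPKM (adjusted p = 0.29 by limma). Ncf1 (p47phox), the organizer of the phagocyte enzyme, rose from 2.80 ± 0.294 to 6.61 ± 0.817 RPKM, and Ncf4 (p40phox) from 1.27 ± 0.308 to 3.29 ± 1.05 RPKM. Noxo1, the organizer subunit known from Nox1, rose from 1.83 ± 0.130 to 7.52 ± 1.48 RPKM. Poldip2, which binds p22phox and raises the activity of Nox4, fell from 46.4 ± 5.94 to 29.0 ± 1.26 RPKM. Its log2 fold change was -0.67 with an adjusted p of 0.0044 by limma.

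Other enzymes that make oxidants were called for 8 of 11 tested genes, 6 higher and 2 lower, beside 14.7% and 21.1% of all genes. Leaving out any 1 of the 6 libraries left 1 lower call, and Hao1, among the 2, passed the filter through PND2 only. Monoamine oxidase B (Maob) rose from 9.68 ± 1.68 to 69.7 ± 3.88 RPKM and aldehyde oxidase (Aox1) from 5.11 ± 0.529 to 21.0 ± 2.99 RPKM. Xanthine dehydrogenase (Xdh) rose from 8.01 ± 7.37 to 40.4 ± 0.495 RPKM, with a wide spread at PND2. Endothelial nitric oxide synthase (Nos3) fell from 63.3 ± 8.64 to 39.3 ± 7.33 RPKM. Nos3 is itself among the 8 endothelial markers, so the sum and the lower calls of that list include it. The sum lay between 459 and 620 RPKM at PND2 and between 274 and 280 RPKM at 4 months. The part of endothelial cells in the level of Nos3 was not tested.

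Copper reaches Sod1 and Sod3 through a short chain of carriers. In the list of superoxide dismutases and copper supply 1 of 7 tested genes was called higher, Sod3 itself, and 2 lower, or 1 lower without replicate 2 of PND2. The share called was 42.9%, beside 35.8% of all genes. Slc31a1 (Ctr1), which brings copper into the cell, fell from 28.8 ± 0.783 to 11.97 ± 1.25 RPKM. Atp7a, the pump that loads copper onto secreted enzymes such as Sod3, fell from 5.80 ± 0.257 to 3.39 ± 0.615 RPKM. Ccs, the copper chaperone of Sod1, was measured at 45.1 ± 5.24 and 46.8 ± 6.86 RPKM and was not called.

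Among the 6 tested genes of catalase and the glutathione peroxidases, 2 were called higher (Gpx1 and Gpx4), 1 lower and 3 not. The share called was 50%, beside 35.8% of all genes. The gene that fell was Gpx7, a peroxidase of the endoplasmic reticulum, from 71.3 ± 5.36 to 31.9 ± 4.21 RPKM with an adjusted p of 5.8e-04 by limma. Its relative Gpx8 was measured at 158 ± 2.04 and 144 ± 9.20 RPKM and was not called. Peroxiredoxins and thioredoxins, the other route of peroxide removal, had 1 gene called higher, 5 lower and 11 not of 17 tested, or 35.3%, close to the 35.8% of all genes called. Without replicate 3 of 4 months 3 were called lower. Srxn1, which repairs overoxidized peroxiredoxins, rose from 8.97 ± 0.183 to 21.1 ± 1.14 RPKM. Prdx2, a cytosolic peroxiredoxin, fell from 129 ± 3.36 to 79.5 ± 1.85 RPKM, and Txnip, which binds and inhibits thioredoxin, fell from 656 ± 120 to 360 ± 82.8 RPKM. Glrx5, a mitochondrial glutaredoxin, fell from 52.8 ± 5.65 to 33.5 ± 2.86 RPKM.

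Gpx1 and Gpx4 work with glutathione and contain selenium, and the genes that supply both were called in either direction. Of 11 tested genes of glutathione and NADPH supply 2 were called higher and 3 lower, beside 14.7% and 21.1% of all genes. The 3 lower calls became 1 without replicate 2 or replicate 3 of PND2 or replicate 3 of 4 months. G6pdx, which starts the pentose phosphate pathway and so supplies NADPH, rose from 14.1 ± 1.89 to 30.2 ± 1.68 RPKM. The catalytic subunit of glutathione synthesis, Gclc, rose from 14.6 ± 1.96 to 24.6 ± 2.63 RPKM, and its modifier subunit Gclm fell from 88.1 ± 1.36 to 70.6 ± 6.95 RPKM. Gsr, which regenerates glutathione, fell from 21.6 ± 0.528 to 15.9 ± 1.42 RPKM, and Ggt5, which cleaves extracellular glutathione, fell from 3.27 ± 0.200 to 1.38 ± 0.0634 RPKM. In the selenoprotein list 3 of 10 tested genes were called lower and 7 were not called. The share called was 30%, near the 35.8% of all genes. The 3 are Pstk (22.4 ± 0.955 to 12.4 ± 1.71 RPKM), Sephs1 (19.3 ± 0.484 to 11.4 ± 0.867 RPKM) and Secisbp2 (11.2 ± 1.57 to 7.54 ± 0.225 RPKM), the last of which lets ribosomes read the selenocysteine codon. In this list 2 were called lower without replicate 2 or 3 of PND2 or replicate 1 or 3 of 4 months. The unequal-variance test of each gene alone called 1 lower, and after median scaling 1 was called higher beside 3 lower.

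Around Hmox1, 4 of 11 tested genes of heme breakdown and iron storage were called higher and 1 lower, or 2 lower without replicate 3 of 4 months. The share called was 45.5%, beside 35.8% of all genes. Hp (haptoglobin), which binds free hemoglobin, rose from 0.740 ± 0.163 to 60.9 ± 11.3 RPKM, and its macrophage receptor Cd163 from 2.45 ± 1.37 to 13.0 ± 1.88 RPKM. Fth1, the ferritin heavy chain that stores iron, rose from 950 ± 103 to 3872 ± 437 RPKM. Slc40a1 (ferroportin), which exports iron, fell from 4.52 ± 0.659 to 2.07 ± 0.320 RPKM. The constitutive heme oxygenase Hmox2 was measured at 47.1 ± 5.93 and 45.9 ± 2.36 RPKM and was not called.

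Hmox1 is also a standard target of Nrf2, the transcription factor encoded by Nfe2l2. Of 17 tested genes of Nrf2 regulators and targets, 10 were called higher, 1 lower and 6 not. Over all genes tested it was 14.7% higher and 21.1% lower. The median log2 fold change of the 17 was 0.60. The unequal-variance test of each gene alone called 4 of them higher, and the lower call of Gclm was lost without replicate 2 or 3 of PND2 or replicate 2 of 4 months. Nfe2l2 itself went from 39.5 ± 6.92 to 63.2 ± 4.86 RPKM with an adjusted p of 0.00795 by limma. Osgin1 rose from 0.231 ± 0.0874 to 3.07 ± 0.766 RPKM, and the glutathione transferases Gsta3 and Gstm1 rose from 0.632 ± 0.399 to 4.97 ± 0.976 RPKM and from 87.6 ± 16.8 to 559 ± 137 RPKM. Nqo1, a further standard target, rose from 20.8 ± 2.22 to 31.6 ± 1.92 RPKM. Among the targets on the list Hmox1, Gclm, Slc7a11 and Txnrd1 had negative log2 fold changes, and of these Gclm was the 1 that was called. Bach1, the repressor of Hmox1, was measured at 13.5 ± 0.937 and 10.9 ± 0.220 RPKM and was not called (adjusted p = 0.0665 by limma).

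**Figure D5:**
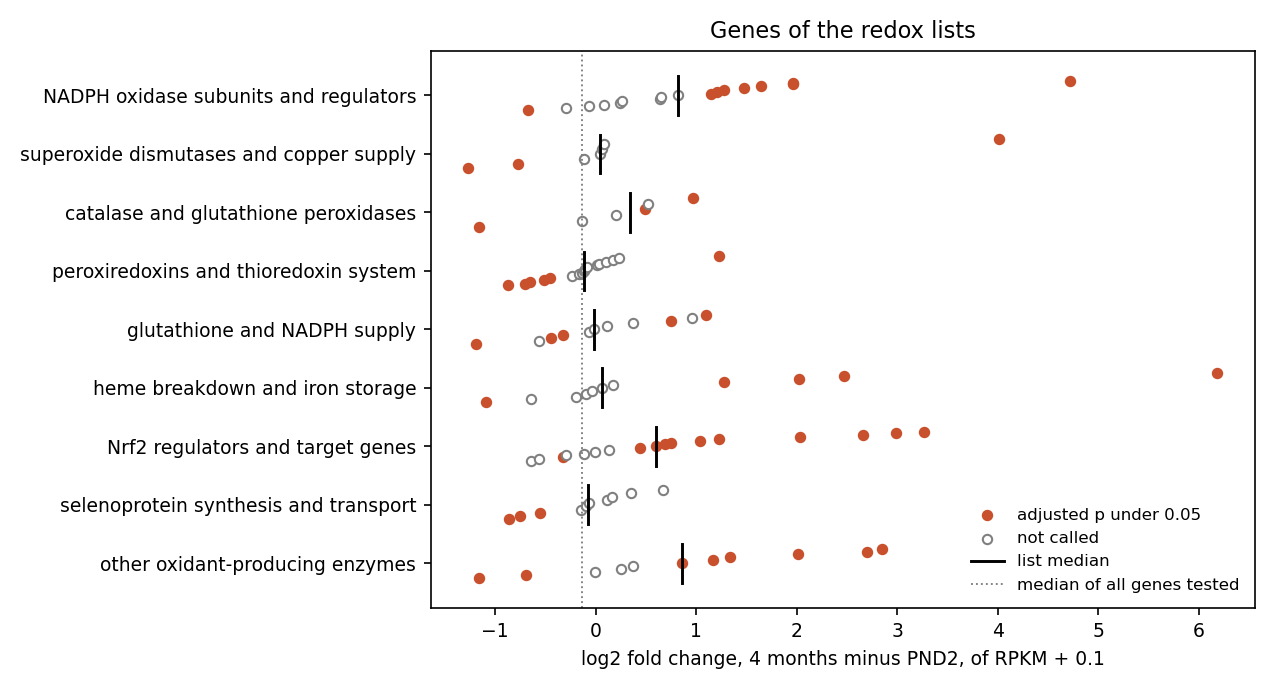
Log2 fold change of RPKM + 0.1, 4 months minus PND2, of each tested gene in 9 redox lists, with filled points for genes called by limma, open points for the rest, a black bar at the median of each list and a dotted line at the median of all genes tested (-0.14). The list medians run from -0.12 for peroxiredoxins and thioredoxins to 0.86 for other oxidant-producing enzymes, and the isolated points on the right are Nox4, Sod3 and Hp.

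Over the 9 lists together, 101 of 108 different genes could be tested, of which 32 were called higher and 18 lower, or 49.5%, beside 35.8% of all genes tested (14.7% higher and 21.1% lower). This number includes the 10 members, and the lists were drawn up with earlier results of these data known. Under the unequal-variance test of each gene alone the number called was 26, beside 13.2% of all genes.

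The protein-coding genes whose log2 levels followed Nox4 most closely over the 6 libraries were Xk, Rab7b, Npnt, Sp100 and Lyz2, among 11182 genes with a mean of at least 5 RPKM at either age. Their Pearson's r with Nox4 was at least 0.999. The 6 points fall into 2 ages, and 9.62% of the genes compared had an r of at least 0.95, so a high r is shared by many genes that differ between the ages. Npnt, which encodes the matrix protein nephronectin, went from 22.8, 23.7 and 16.1 RPKM at PND2 to 310, 280 and 257 RPKM at 4 months. Its libraries were lowest in replicate 3 at each age, as those of Nox4 were. Npnt was picked by its r with Nox4 over these same libraries, so a shared order adds nothing to that r. Lyz2, a lysozyme of macrophages that is also in the macrophage marker list, went from 121 ± 12.3 to 595 ± 25.6 RPKM.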

How the data were processed

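The submitters' notes name TopHat2 2.1.0, R 3.2.2 and build mm10. The authors trimmed and aligned paired reads, and used easyRNASeq to count them per Ensembl gene and exon. Values were deposited as RPKM, scaled by the authors to exonic length and library total. Whether counting used strand is not given in the sources used here, and no annotated gene overlaps a member. Whole reads were recovered from 100% of gene values above 0 (tolerance 0.01 reads). Reads summed over genes came to 2.31 to 2.36 times the totals, and whether the totals count reads or pairs is not given in the sources used here.

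Ages were compared with limma 3.58.1 (lmFit, eBayes with a trend) in R 4.3.3, with the package data.table at version 1.17.8. Figures were drawn with matplotlib 3.10.9, and pandas 2.3.3, scipy 1.17.1 and numpy 2.4.6 ran under Python 3.11.15. Replicates were taken as independent pools. The members, the 9 redox lists and the 8 marker lists were chosen with earlier results of these data known. Named genes are the members, up to 3 called genes per list and direction with a mean of at least 1 RPKM, markers beside a member's result, and the 5 genes most like Nox4. Others (Cyba, Ncf1, Ncf4, Ccs, Gpx8, Hmox2, Nfe2l2, Nqo1, Slc7a11, Txnrd1 and Bach1) were added for their role after values were seen. The fit was tested on simulated data, and of 199 genes planted with a 4-fold change among 26508, 96.0% were recovered with 36 false calls. The planted genes had a mean of at least 1 RPKM, and every gene was given the same scatter between libraries. Recovery at lower levels or with a wider scatter was not measured. In that simulation false calls made up a larger share of all calls than the adjusted p threshold is meant to allow. Calls of limma near the threshold may therefore be less certain than their adjusted p implies. Start windows come from RefSeq (GRCm38.p6).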

Additional observations from a re-analysis of the deposited data

How the results depend on the processing

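Nox4, Sod3 and Cybb stayed called and Cat, Sod1 and Sod2 stayed uncalled under each alternative. An unequal-variance test of each gene alone called 3 members, 3408 genes and 26 of the listed genes, and ended the calls of Gpx1 (0.97) and Gpx4 (0.49). Gpx3 became called after median scaling (0.64), quantile normalization (0.66), voom (0.52) and without replicate 1 of PND2 (0.64). Hmox1 became called with the filter raised to 1 RPKM (-0.64), with voom (-0.62) and without replicate 3 of 4 months (-0.84). Sod2 changed sign without replicate 2 of 4 months (-0.045).

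Deviations of same-numbered libraries had correlations of 0.0439, -0.0608 and -0.160, within the range of differently numbered ones (-0.176 to 0.233). With 3 libraries per age this cannot settle whether the numbers mark a pairing or a batch. With the replicate number as a block Gpx3 (0.52) and Hmox1 (-0.64) were called, making 7 members and 7167 genes, and no other member's call changed.

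Leaving out each library in turn gave 5 to 6 members called and 6301 to 8581 genes. The log2 fold change of Nox4 then ran from 4.57 to 4.80, that of Sod3 from 3.84 to 4.16, Cybb 1.81 to 2.07, Gpx1 0.87 to 1.14, Gpx4 0.41 to 0.56, Gpx3 0.36 to 0.66, Sod2 -0.045 to 0.25, Cat 0.056 to 0.28, Sod1 0.020 to 0.11 and Hmox1 -0.84 to -0.47. Counted in reads and not per length, the rise in share was 58.2 points for Sod3 (44.3 per length) and 30.1 points for Nox4 (35.7). By the median exon, an alternative added after the exon values were seen, it was 20.7 points for Nox4. The fewest reads behind a member's value were 289, for Cybb, and detection of changes smaller than 4-fold was not measured.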
